A study of Ovis aries with 18 samples.

Results

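The row 19_14926 is 1 predicted microRNA locus of the sheep genome, listed in the deposited tables with the seed of bovine miR-885. It is 1 of 495 rows in the table for extracellular vesicles of the uterine lumen and 1 of 761 in the table for endometrium, and 488 rows are in both. It was selected on the results themselves: in the vesicles it stood among the rows with the smallest p for the effect of treatment, and in the endometrium it was among those with an adjusted p under 0.05 in the authors' deposited table. The treatment difference of this row is therefore described with its error, and no test of it is given. No other row of either table is listed with a miR-885 seed. A shared seed does not make the locus miR-885 itself, so the row is called by its identifier.

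All ewes were ovariectomized and had daily injections of 50 mg progesterone (P4) over 14 days. From day 8 through day 14 the P4+RU486 ewes were also given 50 mg per day of RU486, and the P4 ewes were not. RU486, or mifepristone, blocks the progesterone receptor. Small RNA libraries came from vesicles of 4 P4+RU486 ewes and 4 P4 ewes, and from endometrium of 5 ewes per treatment. The vesicles had been concentrated from a saline flush of the uterus by filtration and size exclusion, per the labels' protocols. The model lacks ovarian hormones other than the injected progesterone. RU486 also binds the glucocorticoid receptor, so the treatment is not specific to a single receptor.

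A microRNA recognises its target messenger RNAs mainly through its seed, a short stretch near its 5′ end, and the RNAs bound in this way are repressed or degraded. In human, the gene of miR-885 lies within an intron of ATP2B2, which encodes a calcium pump of the plasma membrane, and miR-885-5p is known as a microRNA of liver that also circulates in plasma. In the ewe, continued progesterone exposure reduces the progesterone receptor in the uterine epithelia, while the stroma keeps it. The uterine lumen receives vesicles from the epithelium that lines it and from its glands.

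In vesicles, 19_14926 was present in every library and lower in all 4 P4+RU486 libraries than in any P4 library. The treatment of each library was inferred from the initial of its column name, R for RU486 and P for P4, and every direction below rests on that. Its normalized CPM values (reads scaled to an adjusted library size) were 94.9, 62.6, 66.9 and 62.6 in the P4+RU486 libraries R01 to R04, against 416, 105, 270.3 and 343 in the P4 libraries P01 to P04. The P4+RU486 values lay close together, while P02 stood well below the other P4 libraries and only 1.10 times above R01, the highest of the P4+RU486 libraries. The mean was 71.8 ± 15.5 (SD, n = 4) in P4+RU486 and 284 ± 133 (SD, n = 4) in P4. The fitted log2 difference, P4+RU486 minus P4, was -1.82 (SE 0.45, limma on log2 of the value + 1), which is 3.54-fold lower in P4+RU486. Fewer vesicles that carry this RNA and less of it per vesicle cannot be told apart in such libraries.

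**Figure D1:**
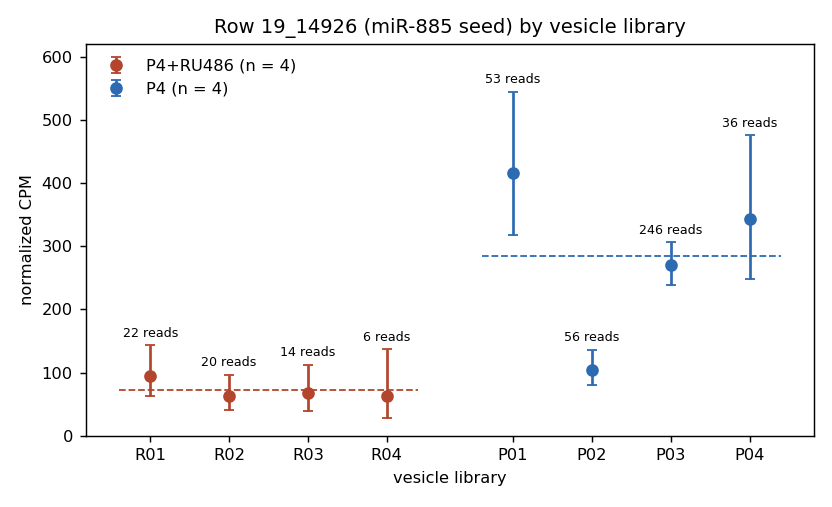
Normalized CPM of 19_14926 in each vesicle library, P4+RU486 on the left and P4 on the right; bars are 95% Wilson intervals of the read share (counting error only), dashed lines are group means and the recovered reads stand above each bar. The P4+RU486 libraries sit between 62.6 and 94.9, below the P4 libraries at 105 to 416.

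The number of reads behind these values was small. The P4+RU486 libraries held 22, 20, 14 and 6 reads of the row, and the P4 libraries 53, 56, 246 and 36. The library totals over all listed rows ranged from 101186 to 328453 reads in P4+RU486 and from 97202 to 1062646 in P4. The 95% Wilson interval of R04, with 6 reads, ran from 28.7 to 137 normalized CPM, and that of R01 from 62.7 to 144. The interval of P02 ran from 80.7 to 136, and it overlapped the interval of each of the 4 P4+RU486 libraries. The intervals of the other P4 libraries began at 238.6 (P03), 248 (P04) and 318 (P01), above the upper end of every P4+RU486 interval. These intervals cover counting error only, because no molecular identifiers were reported that would separate molecules from copies.

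On the log2 scale the SD was 0.28 in P4+RU486 and 0.88 in P4, while the SD that counting error alone would give was 0.42 in P4+RU486 and 0.19 in P4. Both observed values rest on 4 ewes, and their difference was not tested. Within P4 the highest library (P01) was 3.97 times the lowest (P02), and within P4+RU486 the highest (R01) was 1.52 times the lowest. Within P4, the shallow libraries P01 and P04, with 97202 and 97593 reads, had the highest values, and the deeper P02 and P03, with 571791 and 1062646 reads, the lowest. P4+RU486 did not show this order: the shallowest library, R04 (101186 reads), and the deepest, R02 (328453 reads), were both at 62.6. The part of depth in these values was not tested within a treatment.

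The row was of middling abundance in vesicles. Its share of reads was 0.00696% ± 0.00141 (SD, n = 4) in P4+RU486 and 0.0311% ± 0.0191 (SD, n = 4) in P4. Ranked from the most abundant row down, it stood between place 121 and place 142 in the P4+RU486 libraries and between place 85 and place 112 in the P4 libraries, without overlap. By its mean over all 8 libraries it ranked at place 111 of 495.

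The difference of 19_14926 was set against the whole vesicle table, of which 229 rows with a mean of at least 10 normalized CPM were tested. In 1 of them (0.437%) the limma adjusted p was under 0.05, and that row was miR-99a, at 584 ± 83.9 (SD, n = 4) in P4+RU486 and 1541 ± 146 (SD, n = 4) in P4. Leaving out any one of R01, R03, R04 and P04 left 0 rows called by limma, where 20 to 30 rows had an unadjusted limma p under 0.05. In 12 rows (5.24%) all P4+RU486 libraries lay below all P4 libraries, as they did for 19_14926, and counting both directions the groups did not overlap in 23 rows (10.0%). Since the row was chosen for this contrast, nothing is read from its place among them. The median difference of all tested rows was 0.04 and their median SE 0.51. Of the tested rows 6 had a more negative fitted difference than 19_14926, and none of these had a mean level as high, among 111 tested rows at or above its level (19_14926 included as 1 of them).

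Among the 20 tested rows nearest to it in mean log2 level, which had means of 98.5 to 305 normalized CPM, the fitted differences ran from -1.30 to 1.04 with a median of -0.08. In 12 of them P4+RU486 was lower and in 8 higher, and none had a difference as large in size as that of 19_14926, a place that the choice of the row favours. The groups did not overlap in 1 of the 20, and there P4+RU486 was higher. The nearest rows below it were 3_24643, with the miR-331-3p seed, and X_35685, which is listed with no seed name. The row 3_24643 averaged 128 ± 21.6 (SD, n = 4) in P4+RU486 and 142 ± 48.4 (SD, n = 4) in P4, a log2 difference of -0.08 (SE 0.39). X_35685 averaged 103 ± 28.1 (SD, n = 4) in P4+RU486 and 143 ± 95.3 (SD, n = 4) in P4, a log2 difference of -0.33 (SE 0.45). The nearest rows above were X_36145, with the miR-1468 seed, and 14_9394, listed with no seed name, with log2 differences of 0.48 (SE 0.54) and 0.73 (SE 0.43). In all 4 of these neighbours the libraries of the treatments overlapped.

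The neighbours also show how usual the spread of 19_14926 was at its level. Their log2 SD in P4+RU486 ran from 0.12 to 1.29 with a median of 0.45, and 7 of the 20 had a smaller one than 19_14926. Their log2 SD in P4 ran from 0.20 to 1.65 with a median of 0.65, and 6 of the 20 had a larger one. Its spread was thus within the range of these 20 rows in both treatments. They were matched on mean level over all 8 libraries, not within each treatment, so their read numbers within a treatment can differ from its own. In P4+RU486 the lowest of their means, 90.8 normalized CPM (X_35730), was above the 71.8 of 19_14926.

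**Figure D2:**
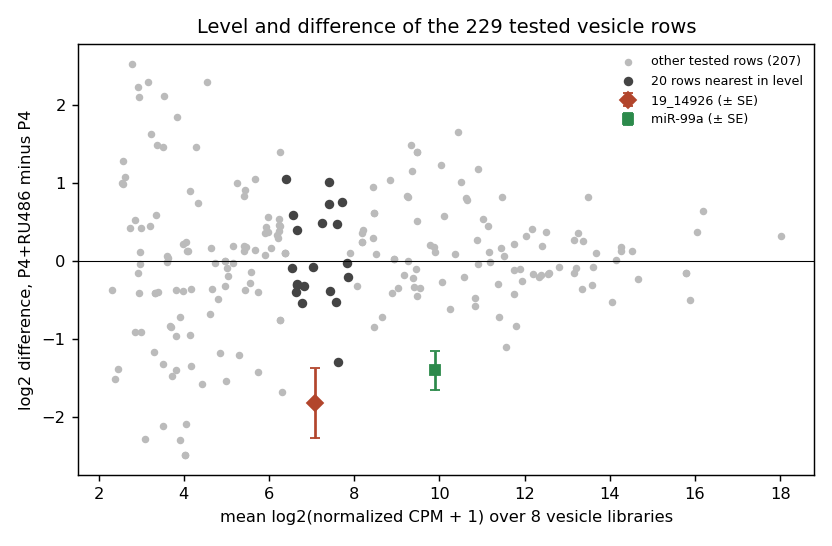
Each point is 1 of the 229 tested vesicle rows, with its mean log2 level over the 8 libraries on the x axis and its log2 difference (P4+RU486 minus P4) on the y axis; dark points are the 20 rows nearest in level, and bars on 19_14926 and miR-99a are SE. The row 19_14926 lies at -1.82, below its 20 neighbours, whose lowest is at -1.30.

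The size of the estimate depended on which libraries were used. Its sign did not change in any alternative, which for a row chosen with groups that do not overlap is no sign of stability. It ranged from -2.24 without P02, the lowest P4 library, to -1.58 without P01, the highest, when a single library was left out. Without the 3 libraries of fewest reads (P01, P04 and R04) it was -1.18 (SE 0.51), or 2.27-fold lower in P4+RU486 in place of 3.54-fold. Only P02 and P03 then stand for P4, at 105 and 270.3 normalized CPM. With the log2 of the read total as a covariate it was -1.93 (SE 0.42). On the recovered reads edgeR gave -1.98 and DESeq2 gave -1.998 (SE 0.51).

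**Figure D3:**
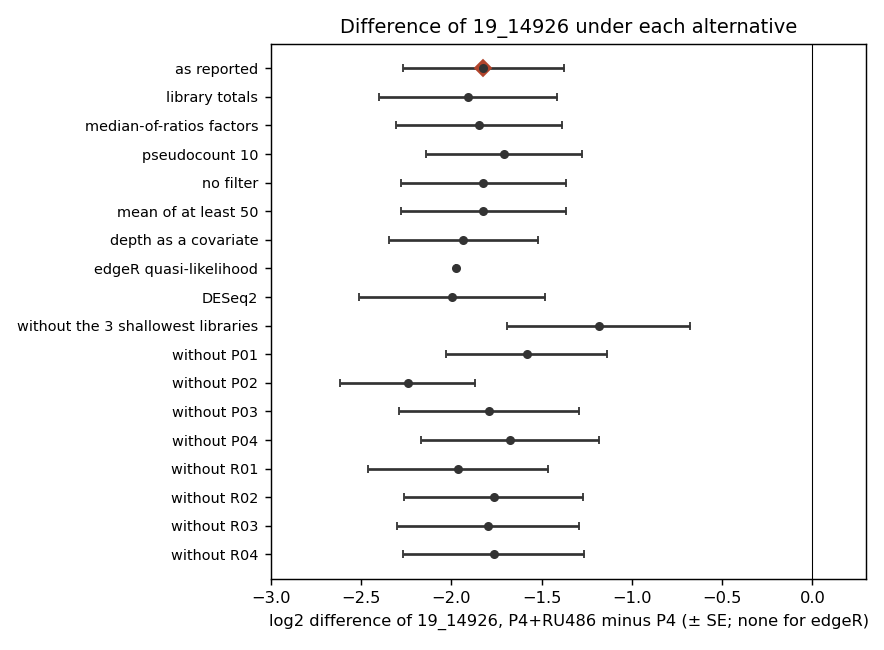
Log2 difference of 19_14926 (P4+RU486 minus P4, x axis) under each alternative setting (y axis), with SE bars; the edgeR fit gives none. The estimates run from -2.24 without P02 to -1.18 without the 3 shallowest libraries.

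The rows whose levels across the 8 vesicle libraries were most like those of 19_14926 were found by Pearson r on the log2 scale, as a description. All libraries share their normalization, and a treatment difference of the same sign raises r, so a value within treatments (each treatment's mean removed) is given too. Over 228 rows the median r was -0.05, with r above 0.8 for 6 rows and below -0.8 for 9 rows. The most alike was miR-133, a microRNA of striated muscle, with r = 0.92 (0.75 within treatments), followed by miR-99a with 0.87 (0.32), miR-125b with 0.87 (0.66), 4_28011, with the miR-574-3p seed, at 0.85 (0.57), and 1_2631, with the miR-190a seed, at 0.84 (0.59). All 5 had lower estimates in P4+RU486. With 1 library left out, miR-133 stayed the most alike row in 5 of 8 cases, and the others were led by miR-99a (without P02, r = 0.97), miR-29a (without R02, 0.95) and miR-125b (without R04, 0.97).

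Of these, miR-133 rests on very few reads. It was at 17.2, 6.26, 9.56 and 10.4 normalized CPM in R01 to R04, against 39.3, 18.7, 20.9 and 38.2 in P01 to P04. P01 and P04 were the highest for it, as for 19_14926, and its P4+RU486 libraries all lay below its P4 libraries. The library P01 held 5 of its reads and R04 held 1. miR-125b, a relative of the founding microRNA lin-4 of the worm, was at 3433, 2752, 3242 and 1608 normalized CPM in R01 to R04, against 5979, 3407, 5271 and 4732 in P01 to P04. Its P02 value was the lowest of P4, again as for 19_14926, and lay just below that of R01. miR-99a did not share that dip: it was at 1460.2 in P02 and at 1459.7 to 1760 in the other P4 libraries.

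The least alike rows ran the other way. X_36364, with the miR-421 seed, had r = -0.91 (-0.69 within treatments). For let-7a, of the family that restrains growth genes, r was -0.88 (-0.79), and for miR-107 it was -0.88 (-0.49). X_36364 was at 267, 288, 287 and 240.1 normalized CPM in R01 to R04, against 110.0, 200.3, 193 and 153 in P01 to P04, with no overlap and with P02 the highest of P4. It is also 1 of the 20 rows nearest in level to 19_14926, and the one among them whose groups did not overlap. Within treatments alone, the row most like 19_14926 was miR-411a-5p with r = 0.90. Its log2 difference between treatments was -0.20, and it was at 86.4, 11.2, 19.8 and 66.8 normalized CPM in P01 to P04. It too rests on few reads, with 10, 8, 7 and 2 in R01 to R04 and 11, 6, 18 and 7 in P01 to P04. Its r is the highest of the 228 rows compared.

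**Figure D4:**
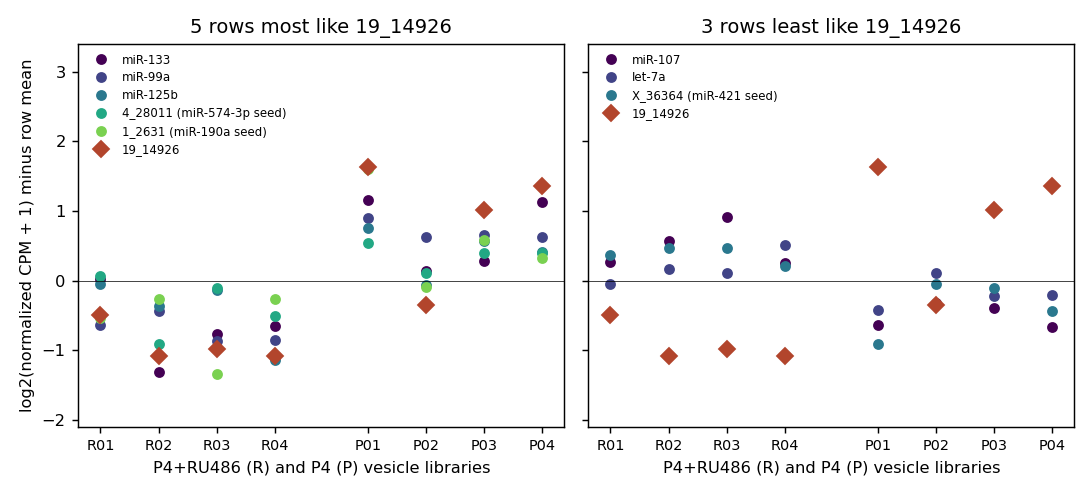
Log2 level of each row minus its own mean over the 8 libraries (y axis) in the P4+RU486 libraries (R) and the P4 libraries (P) on the x axis, for 19_14926 (diamonds) with the 5 most alike rows (left, r from 0.84 to 0.92) and the 3 least alike (right, r from -0.91 to -0.88). Most of the rows on the left are above 0 in P4, and P02 is the lowest P4 point of 19_14926.

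Because miR-885 is known from liver and plasma, other microRNAs of that source were looked at beside it. Of the 7 names on the list, miR-122, miR-192, miR-193b and miR-483 matched no row by name or seed name, and a row can be listed under a relative of the same seed. miR-192 shares its seed with miR-215, and miR-193b-3p with miR-193a-3p. The row 24_21619, listed with the miR-193a-3p seed and looked at after its values were seen, averaged 19.7 ± 22.9 (SD, n = 4) in P4+RU486 and 44.0 ± 34.5 (SD, n = 4) in P4, a log2 difference of -1.58 (SE 0.89). The matched rows were miR-194 and 21_20031, with the miR-215 seed. miR-194 was at 43.1, 65.8, 62.2 and 41.8 normalized CPM in R01 to R04, against 23.6, 48.7, 89.0 and 47.7 in P01 to P04, a log2 difference of 0.14 (SE 0.49). The row 21_20031 was at 940.2, 1450, 851 and 835 in R01 to R04, against 589, 1140.1, 1201 and 868 in P01 to P04, a log2 difference of 0.12 (SE 0.31). In miR-194 and 21_20031, P01 was the lowest of the P4 libraries, whereas it was the highest for 19_14926, and the treatments overlapped.

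MicroRNAs of other cells were summed in the same way over each list. No tested row of these lists had a limma adjusted p under 0.05, against 0.437% of all tested rows. The erythroid list matched 1 row by the miR-486 seed, 26_23579, which ranged from 1848 to 5427 normalized CPM in P4+RU486 and from 281 to 7365 in P4. Its P4 values were 7365 in P04, 3441 in P01, 363 in P03 and 281 in P02. P02 was the lowest P4 library for 19_14926 too, but the highest was P01, not P04. The log2 difference of 26_23579 was 1.18 (SE 0.90), higher in P4+RU486 and so opposite in sign to that of 19_14926. The 4 leukocyte rows summed to 2286 to 5094 in P4+RU486 and to 2512 to 14818 in P4. The highest sum was that of P01, mostly miR-150, a lymphocyte microRNA, and 3 of the 4 rows had lower estimates in P4+RU486 (median -0.30). P01 was also the highest library of 19_14926. The lowest P4 sum was in P03 (2512), whereas 19_14926 was lowest in P02, where the sum was 4632. The 2 muscle rows, miR-143 and 5_29566 with the miR-145 seed, summed to 9730 to 14935 in P4+RU486 and to 10828 to 16531 in P4. The log2 difference was -0.08 (SE 0.22) for miR-143, which made up nearly all of the sum. It was -1.43 (SE 0.59) for 5_29566, which averaged 68.2 normalized CPM over the 8 libraries. The list names miR-133a and miR-133b, which matched no row, so the row named miR-133 was not counted in it. The 6 epithelial rows, of the miR-200 family and the miR-205 seed, summed to 15180 to 21053 in P4+RU486 and to 8965 to 35369 in P4, with 5 higher and 1 lower estimate. Of 4 tested brain rows 3 had higher estimates in P4+RU486, 2 of them with identical values and the miR-9-5p seed. With identical rows counted once, the 5 distinct rows of that list summed to 1759.6 to 2448 in P4+RU486 and to 715 to 1723 in P4. Within P4, P03 held the highest sum of the epithelial, brain and muscle lists. P01, the highest library of 19_14926, held the lowest epithelial and brain sums, and P04 the lowest muscle sum. The part of blood or other cells in the level of 19_14926 was not tested.

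In the authors' deposited table for vesicles, the fold of 19_14926 was 3.93 and its adjusted p 0.18. The numerator of that fold is not named. There, 9 of 495 rows (1.82%) had an adjusted p under 0.05, and 12 rows had a smaller adjusted p than 19_14926. The ratio of the group means, P4 over P4+RU486, was 3.95 on the deposited values. From this closeness a positive vesicle fold is read here as higher in P4.

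In the authors' deposited table for endometrium, the fold of the row was 2.10 and its adjusted p 0.036. The numerator of that fold is not named either, and no group means could be set beside it. Which treatment was higher in the tissue is therefore not stated here. There, 9 of 761 rows (1.18%) had an adjusted p under 0.05, and 19_14926 had the largest adjusted p of these 9. The row just inside the threshold beside it, 5_29555 with the miR-2312 seed, had a fold of 2.61 and an adjusted p of 0.023, and those just outside, 6_31046 and miR-370-3p, had folds of 11.76 and 1.52 with adjusted p of 0.05 and 0.075 in the authors' deposited table. By size of fold, 110 rows of the table exceeded 19_14926, and 104 of these had a larger adjusted p.

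Of the 9 rows called in the authors' deposited table for endometrium, 6 were also listed for vesicles, and 3 of them reached the mean of 10 normalized CPM there. These 3 were 19_14926, 16_11384 with the miR-34b seed, and miR-10b. In the authors' deposited table for vesicles, 16_11384 had a fold of 1.49 (adjusted p = 0.85), and miR-10b one of -1.06 (adjusted p = 0.99). With a positive fold read as higher in P4, the sign matched the group means of 16_11384, at 562 in P4+RU486 and 790 in P4. It did not match those of miR-10b, at 6364 in P4+RU486 and 7497 in P4. The limma estimates in vesicles were -0.18 (SE 0.58) for 16_11384 and 0.19 (SE 0.63) for miR-10b, beside -1.82 (SE 0.45) for 19_14926. Whether the response of 19_14926 differed between vesicles and tissue was not tested, since no label identifies the endometrium columns of single libraries, which were left out.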

How the data were processed

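Adapters were trimmed with cutadapt 1.11, and the genome build Oar_v3.1 and edgeR are named, per the submitters' processing notes. An aligner, a locus caller and read filters were not given in the sources used here. The authors deposited vesicle values as a normalized signal (CPM on adjusted library sizes). Dividing each column by the worth of 1 read gave whole numbers for 100% of values, within 0.1 read, and these recovered reads were used as counts. A count of 0 allows up to 3 reads, or 3.30 to 31.3 normalized CPM depending on the library. The fold is a signed score and the adjusted p-value is the authors', per the file headers. The 10 endometrium columns of single libraries match no label and were not used. The treatment of each vesicle column was inferred from its initial, P for P4 and R for RU486. The number after the initial matches no label, so the ewe is not known. limma 3.58.1 (trend, R 4.3.3) was run on log2(value + 1) for all rows that averaged 10 or more (99.9% of reads), with Benjamini-Hochberg adjustment at 0.05. It was also run on simulated reads that gave every row the same dispersion (variation between libraries beyond counting error). That run does not show how limma behaves on the spread of these rows. edgeR 4.0.16 (quasi-likelihood) and DESeq2 1.42.0 on recovered reads were alternatives. Neighbours were the 10 rows on each side in mean log2 level, identical rows kept once, as also in list sums. Named rows were 19_14926, rows sharing its seed name, the 5 most and 3 least alike, the 2 nearest on each side, called rows and the list of liver or plasma. Other rows were named after their values were seen. The row and the lists were chosen with earlier results of these data known.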

Additional observations from a re-analysis of the deposited data

Results flagged for a closer look

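Among the 4 P4+RU486 vesicle libraries, R01 held 94.9 normalized CPM of 19_14926, set apart from 62.6, 66.9 and 62.6 in the others by a gap of 0.866 of the group's whole range, which is above Dixon's 95% critical value for 4 samples. Such a flag arises by chance in about 1 of 20 groups. R01 rested on 22 reads, and its 95% Wilson interval of 62.7 to 144 normalized CPM held the value of R03 and nearly reached those of R02 and R04. The low P02 value among the P4 libraries did not pass the same criterion (0.531 of the range).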

How the results depend on the processing

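The log2 difference of 19_14926 stayed below 0 under all 17 alternatives and moved from the reported -1.82 by less than its residual SD of 0.65, with a range of -2.24 to -1.18. That SD is a spread of single libraries and a wide allowance. Without the 3 shallowest libraries the estimate moved by more than its reported SE of 0.45. The share of neighbours with a more negative difference was 0% among 10, 20 and 40 neighbours and up to 10% with 1 library left out. The row was chosen for this difference, so neither is support for it. Its r with miR-133 stayed between 0.89 and 0.95 with 1 library left out, though miR-133 was the most alike row in 5 of 8 such cases. Spearman's rho was 0.98. The row miR-133 was picked for its high r, which the treatment difference raises, so this range is no support for a likeness. Within treatments r was 0.75, on few reads of miR-133. The count of rows called was less settled: 1 as reported and with edgeR, 5 with DESeq2, 6 with depth as a covariate, and 0 to 2 with 1 library left out. limma called 0 rows without P04, R01, R03 or R04, where 20 to 30 rows had an unadjusted p under 0.05, and 2 without P02. Without the 3 shallowest libraries it called 1 row, but that row was higher in P4+RU486 and so was not miR-99a. Rows whose groups did not overlap numbered 23 as reported, 15 among rows averaging 50 or more, 28 to 37 with 1 library left out, and 86 without the 3 shallowest libraries, where fewer libraries must separate. No paired analysis was possible because the vesicle columns carry no ewe number and the treatments were given to different ewes. Alternatives for single endometrium libraries were not run, since those columns match no label. Depth limits the row most in R04, where it had 6 reads.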
